A study of Mus musculus with 19 samples.

Results

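The genes described here are the 20 cytosolic aminoacyl-tRNA synthetases and a set of known targets of the transcription factor ATF4 with Atf4 itself. The latter comprise 7 stress response regulators, 6 enzymes of amino acid and one-carbon metabolism and 4 amino acid transporters. They were chosen by name and function, and no measured value entered the rule, but earlier results of these data were known when they were chosen. All 37 genes were found among the 55487 Ensembl gene identifiers of the count table, and all 37 were among the 15138 genes that passed the filter on low counts. Hepatic stellate cells (HSCs), the vitamin A-storing cells of the liver, had been sorted by ultraviolet positivity from healthy male Balb/c mice of 23 to 24 weeks. No group received a treatment, and the groups differed only in the time on collagen-coated plastic in medium with 10% serum. RNASeq counts covered freshly sorted cells (0 h, 2 samples), cells after 3, 6, 12, 18 and 96 h (3 samples each) and cells after 24 h (2 samples), and the medium had been renewed at 3 and 24 h. Each sample combined 2 technical repeats, and the labels tag the samples with a replicate number from 1 to 3 and an isolation, without saying how many mice stand behind either. Replicates 1 and 3 carry one isolation label and replicate 2 the other.

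Aminoacyl-tRNA synthetases load each amino acid onto its tRNA and so supply the ribosome. When amino acids run short, unfolded proteins accumulate or the cell meets other stress, kinases phosphorylate the initiation factor eIF2 on its alpha subunit, most translation slows, and the Atf4 mRNA is translated instead. ATF4 then pairs with C/EBP family proteins at composite C/EBP-ATF response elements and turns on genes for amino acid uptake, serine and asparagine synthesis and tRNA charging. This programme is known as the integrated stress response or amino acid response.

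The samples held 2073171 to 7690892 counts, with the smallest total in replicate 3 of the 0 h group, so that 3 counts, taken as the smallest level the depth can show, corresponded to 0.386 to 1.51 CPM. CPM are counts relative to the library total. This floor covers counting error only. Levels are given as CPM scaled by edgeR's TMM factors, which are not divided by length. Of the 703 pairs of gene and sample, 30 stood at 0 counts, and in 14 of these, from 10 genes, another sample of the same timepoint held 50 counts or more. Rars, for instance, had 355 counts in one sample of 0 h and 0 in the other. Replicate 3 of 0 h held 10 of the 37 genes at 0 and replicate 2 held 6. Over all genes tested that reached 50 counts in another sample of the timepoint, between 2.08% and 13.3% per sample stood at 0, and the cause was not tested. In bulk samples, fewer cells expressing a gene and less RNA per cell cannot be told apart.

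Summed over 10 markers of HSCs, the level was 31370 to 36380 CPM at 0 h and 5672 to 6723 CPM at 12 h, and all 10 were detected at each timepoint. The summed level of 10 hepatocyte markers was 3618 to 7809 CPM at 0 h, 408 to 1326 CPM at 3 h and 110 to 164 CPM at 12 h. For Kupffer cell and leukocyte markers it was 286 to 292 CPM at 0 h and at most 5.60 CPM at 12 h, when 9 of 10 stood at 0. The 10 sinusoidal endothelial markers summed to 924 to 1448 CPM at 0 h, 1294 to 4774 CPM at 3 h and 108 to 552 CPM at 12 h, and 5 cholangiocyte markers to at most 19.1 CPM in any sample. The share of counts from the mitochondrial genome was 12.7% and 13.98% in the samples of 0 h, 5.92 to 8.14% at 3 h and 3.62 to 6.22% at the later timepoints. These levels and shares moved along with the comparisons against 0 h, and their part in the results was not tested.

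The promoters of 28 of the 37 genes were found in RefSeq (GRCm38.p6), each from 250 bases before to 50 bases after the gene's start. Those of Cars, Hars, Lars, Nars, Rars, Vars, Wars, Slc7a5 and Slc1a5 were not found under the symbols tried and were not searched. The core of the C/EBP-ATF response element, TGATGNAA, was searched on both strands. It was present in a promoter of 10 of the 28 genes (35.7%), against 4.51% of all 27025 genes with promoters of the same length. TGATGCAA, the form with C at the free base, was present in 7 of the 28 genes (25%), against 1.03% of all genes. Each match to TGATGCAA is also a match to TGATGNAA. The holders were Aars, Gars, Iars, Tars, Yars, Trib3, Chac1, Nupr1, Asns and Slc7a11, of which Aars and Slc7a11 held 2 matches each. The rule did not search for these letters, but it took known targets of ATF4, so the share of genes with a match is not independent of the list. The stretches around TGATGCAA in the 7 genes that held it are given below. They run from 30 bases before the match to 30 bases after it or to the gene's start. In Yars and Iars, where the match lies after the start, the stretches end with the match itself. They are written 5′ to 3′ along the gene's strand, with the matching bases in capitals. The 250 bases before the start of Slc3a2 are given for contrast. Among the genes searched and found without a match, it had the smallest p over all timepoints.
Chac1 (chr2:119351019-119351086, + strand): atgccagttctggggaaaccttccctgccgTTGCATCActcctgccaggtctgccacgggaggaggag
Nupr1 (chr7:126625543-126625610, - strand): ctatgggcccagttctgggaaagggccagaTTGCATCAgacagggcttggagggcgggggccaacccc
Slc7a11 (chr3:50443623-50443709, - strand): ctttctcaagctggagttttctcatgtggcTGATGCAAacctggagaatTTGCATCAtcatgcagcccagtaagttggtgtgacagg
Aars (chr8:111033700-111033767, + strand): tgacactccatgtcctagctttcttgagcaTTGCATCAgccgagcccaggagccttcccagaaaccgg
Iars (chr13:49682107-49682144, + strand): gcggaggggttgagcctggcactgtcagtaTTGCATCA
Tars (chr15:11399659-11399703, - strand): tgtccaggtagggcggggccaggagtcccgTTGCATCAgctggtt
Yars (chr4:129189876-129189913, + strand): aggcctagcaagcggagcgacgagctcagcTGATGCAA
Slc3a2 (chr19:8713898-8714147, - strand): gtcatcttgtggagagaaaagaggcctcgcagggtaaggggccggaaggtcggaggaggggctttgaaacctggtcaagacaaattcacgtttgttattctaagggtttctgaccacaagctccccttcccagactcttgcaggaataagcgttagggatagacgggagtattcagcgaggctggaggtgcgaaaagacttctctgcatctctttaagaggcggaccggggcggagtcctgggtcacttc

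**Figure D1:**
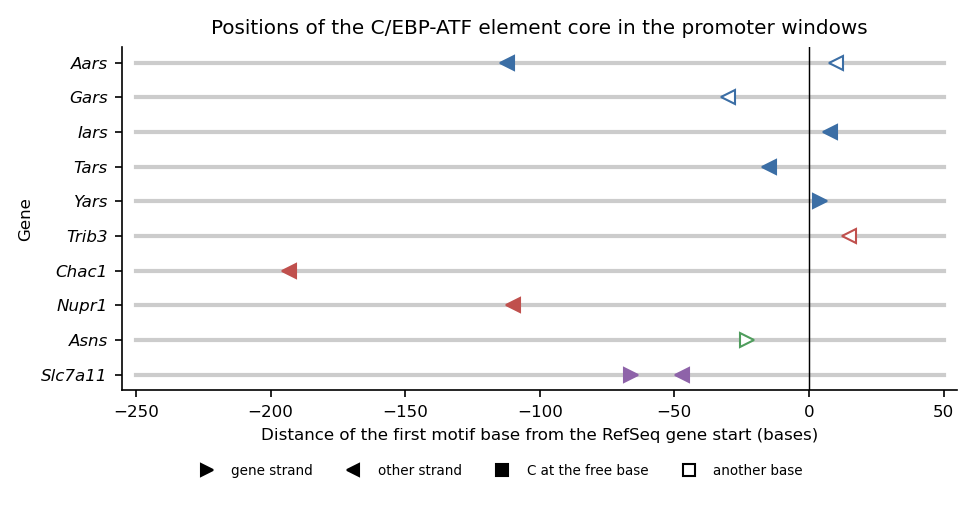
Positions of TGATGNAA in the promoters of the 10 genes that held it, as the distance in bases of the first motif base from the RefSeq gene start (the vertical line at 0). Arrowheads give the strand relative to the gene, filled symbols have C at the free base, and all matches but that of Chac1, at -193, lie closer to the start than that of Aars at -112.

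A match is a description of letters, not a bound site, and the absence of a match says only that these letters are not in the window. In Chac1 the match began 193 bases before the start, in Nupr1 110, in Aars 112 and in Tars 15. The pair in Slc7a11 began 66 and 47 bases before the start and lay on opposite strands. In Yars and Iars the match began 4 and 8 bases after it. Among the 13 synthetases with a promoter in the table, the 5 with a match were all called higher at 12 h than at 0 h and had a median log2 change of 3.42. Of the 8 without a match 5 were called, and the median was 2.36. No test was made of this difference, and Slc3a2 and Eprs were among the genes called at 12 h whose window held no match. Of the synthetases whose promoter was not found, Cars, Hars, Lars, Nars, Rars and Wars were also called higher at 12 h, and Vars was not. Over all genes tested, 8.6% were called higher at 12 h.

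Most of the 37 genes were upregulated within hours of plating. At 3 h, 19 were called higher than at 0 h and none lower, where called means an adjusted p below 0.1 in edgeR's quasi-likelihood test (Benjamini-Hochberg over all genes) and a fold change above 2. Over all genes tested, 4.19% were called higher and 1.39% lower. At 6 h, 29 genes were called higher (all genes tested 6.98% higher and 4.35% lower), and at 12 h 32 genes (8.6% and 9.1%). The number was 30 at 18 h (all genes 7.64% and 8.21%), 25 genes at 24 h (5.65% and 3.86%) and then 18 genes at 96 h (5.83% and 5.03%). None was called lower before 96 h, and at an unadjusted p below 0.05 or with DESeq2 the number lower up to 24 h was also 0. At 96 h Ddit3 alone was called lower. Over the 37 genes, the median log2 fold change from 0 h was 1.86 by 3 h, 3.12 by 6 h and 3.47 by 12 h. It was 3.07 in the 18 h group, 2.34 in the 24 h group and 1.79 in the 96 h group. Over all genes tested the median was 0.0 in each of these comparisons but the last, where it was 0.07. These comparisons share the same 2 samples of 0 h.

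**Figure D2:**
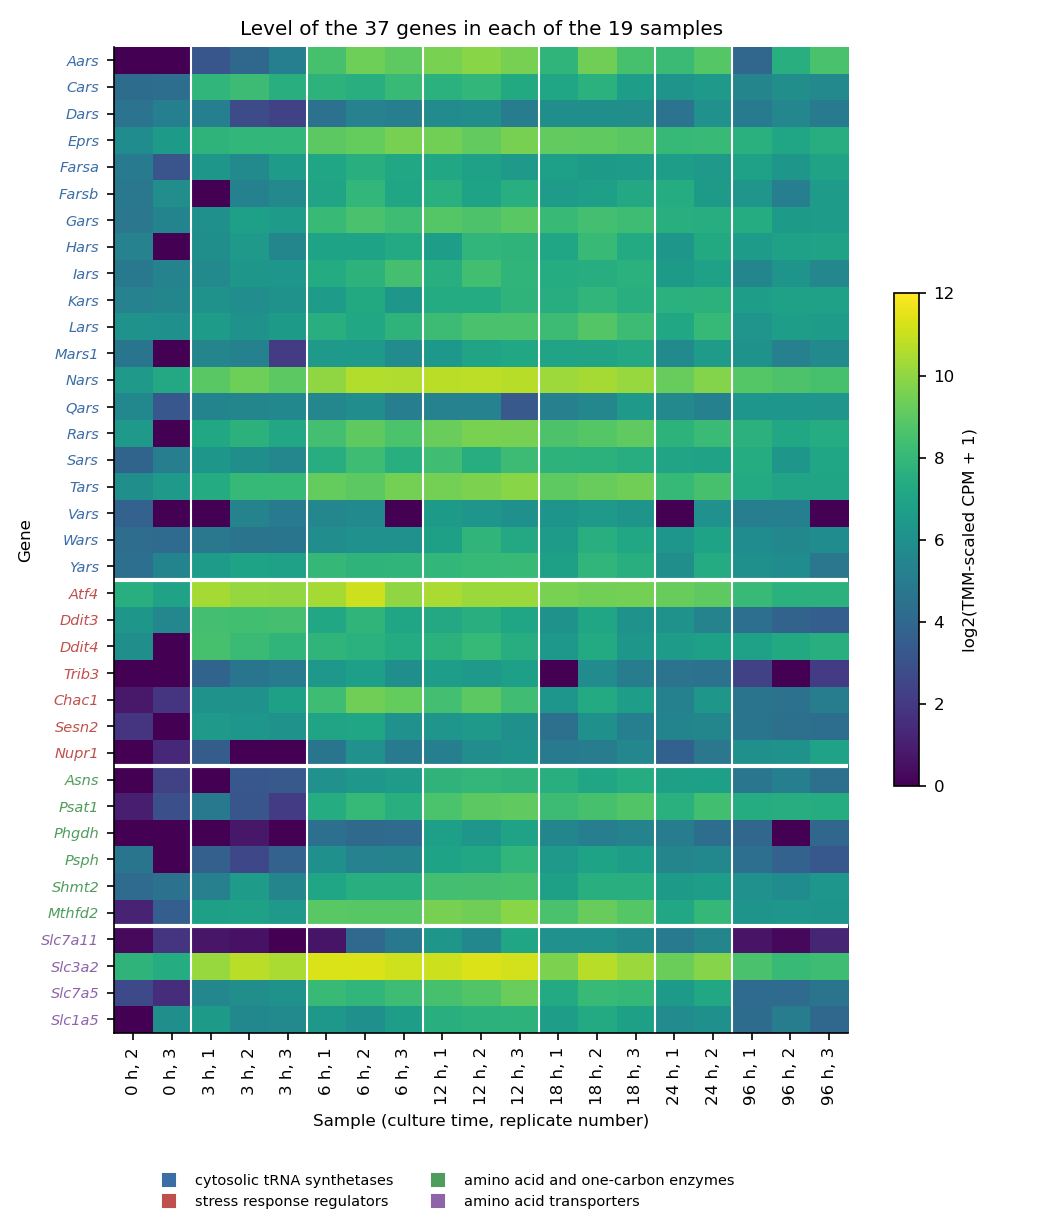
Level of each of the 37 genes (rows, coloured by group) in each of the 19 samples (columns, ordered by culture time and replicate number) as log2 of TMM-scaled CPM plus 1. Dark cells at 0 h and bright cells at 6 to 18 h are seen in most rows, and single dark cells mark samples at 0 counts.

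Samples of 12 h lay entirely above those of 0 h for 35 of the 37 genes, the exceptions being Dars and Qars. Over all genes tested, 20.3% had samples that lay higher in this way, and 8.6% were called higher. Across all 7 timepoints, 29 of the 37 genes changed by the F test at an adjusted p below 0.1, against 27.4% of all genes tested. Called higher at each of the 6 timepoints in culture were 12 genes: Aars, Cars, Eprs, Farsa, Gars, Nars, Sars, Chac1, Sesn2, Shmt2, Mthfd2 and Slc7a5. Of these, Cars, Nars, Chac1 and Mthfd2 kept all 6 calls under every other processing tried at the same thresholds and without any single sample. The other 8 lost at least 1 of them: Aars, Farsa, Gars, Sars and Shmt2 at 3 h, Farsa at 24 h, Sesn2 at 18, 24 and 96 h, and Eprs, Shmt2 and Slc7a5 at 96 h. The call of Sars at 3 h was lost in 16 of 25 such settings, and those of Sesn2 and Slc7a5 only when the fit held no other timepoints. Called at no timepoint were Dars, Farsb, Qars, Vars and Slc1a5. The highest mean stood at 12 h for 21 genes. It stood earlier for 9 others, at 3 h for 3 and at 6 h for 6, and later for the rest, at 18 h for 4, at 24 h for 1 and at 96 h for 2.

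**Figure D3:**
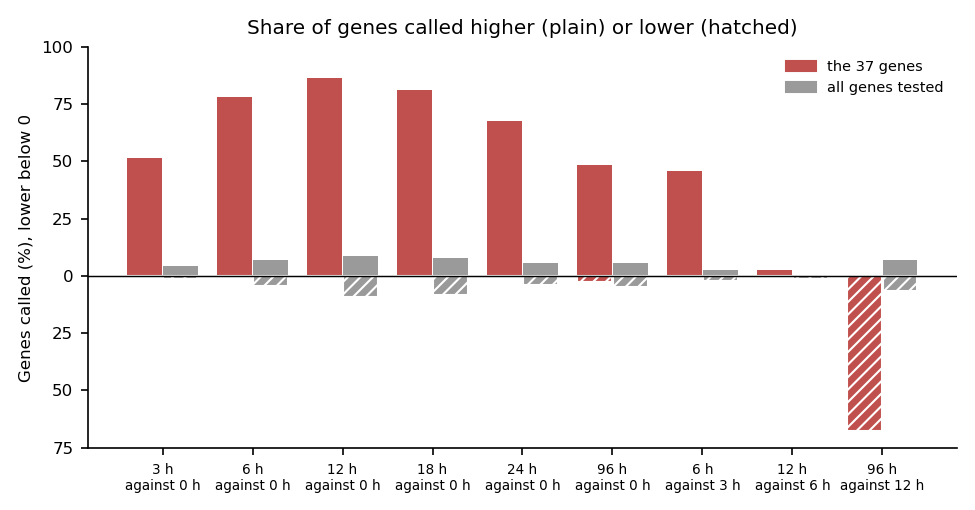
Share of genes called higher (plain bars, above 0) or lower (hatched bars, below 0) in each comparison, in percent of genes tested, for the 37 genes and for all 15138 genes tested. The bars of the 37 genes rise to the 12 h comparison, where 32 were called higher, and turn below 0 at 96 h against 12 h, where 25 were called lower.

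Of the 7 stress response regulators, 6 were called higher at 3 h than at 0 h, the largest share of the 4 groups. All 7 were called at 6 h and 12 h, and 5 genes were called at 18 h, 4 genes at 24 h and 3 genes at 96 h. Atf4 (chr15:80255184-80257541), the transcription factor at the head of the programme, was at 183 and 120 CPM in the 2 samples of 0 h. It reached 1055, 1097 and 1327 CPM at 3 h, 1045, 1339 and 2199 CPM at 6 h and 1173, 1177 and 1410 CPM at 12 h. Its samples at 3 h already lay above both samples of 0 h, and those of 3, 6 and 12 h overlapped one another. At 18 h Atf4 was at 694, 718 and 768 CPM, at 24 h at 519 and 599 CPM, and at 96 h at 199, 205 and 267 CPM. Against 0 h, Atf4 showed a log2 fold change of 2.94 ± 0.30 (SE) at 3 h (adjusted p = 1.5e-05), of 3.33 ± 0.30 at 6 h and of 0.56 ± 0.27 at 96 h (adjusted p = 0.238, edgeR).

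Ddit3 (chr10:127290774-127296288), which encodes the stress-induced transcription factor CHOP, had its highest mean at 3 h. It was at 46.7 and 79.7 CPM at 0 h, at 333, 343 and 347 CPM at 3 h, at 133, 139 and 229 CPM at 6 h and at 132, 149 and 181 CPM at 12 h. Its samples at 96 h, at 11.1, 12.9 and 19.8 CPM, lay below all others. Ddit3 rose by 2.43 ± 0.42 on the log2 scale at 3 h (adjusted p = 0.00212) and fell by 2.12 ± 0.38 at 96 h (adjusted p = 0.00157, edgeR), both against 0 h. Its calls at 6 h and 12 h did not hold without replicate 3 of 0 h, with log2 fold changes of 1.04 and 0.93, nor without replicate 2 of the cultured group, with 1.06 and 1.12. Ddit3 shares 68 exonic bases with Mars1 on the opposite strand, and the strand setting of the counting is not given in the sources used here.

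Chac1 (chr2:119351229-119354381), which encodes an enzyme that degrades glutathione, showed the largest fold change of this group among the genes with counts at 0 h. It was at 0.752 and 2.51 CPM at 0 h, at 67.4, 70.7 and 114 CPM at 3 h, at 305, 564 and 683 CPM at 6 h and at 322, 341 and 497 CPM at 12 h. From there its samples fell to 77.7 to 159 CPM at 18 h and 21.2 to 32.2 CPM at 96 h, which still lay above both samples of 0 h. Against 0 h, Chac1 showed a log2 fold change of 8.46 ± 0.70 at 6 h (adjusted p = 1.43e-06) and 4.12 ± 0.62 at 96 h (adjusted p = 0.000325, edgeR). Sesn2, an inhibitor of mTORC1 signalling under amino acid shortage, was called at each timepoint, with a log2 fold change of 6.23 at 6 h. It stood at 0 in replicate 3 of 0 h and had 10 counts in the other sample, so that the size of this fold change is uncertain.

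Trib3, a pseudokinase that restrains ATF4 activity, stood at 0 in both samples of 0 h and at 62.7 to 108 CPM at 6 h and 86.8 to 108 CPM at 12 h. Set against the floor of 1.51 CPM, its mean at 12 h was at least 65.8-fold higher than at 0 h, and at 96 h it was down to 4.02 CPM or less. Ddit4, another inhibitor of mTORC1 signalling, had its highest mean at 3 h, at 229 to 367 CPM, against 0 and 61.4 CPM at 0 h, the 0 being replicate 3. It was called at 3, 6 and 12 h, but the call at 6 h (adjusted p = 0.0908, edgeR) was lost in 16 of the 25 settings and that at 3 h in 4. At 12 h it was lost without replicate 2 of 12 h (log2 fold change 2.60) and when only 0 h and 12 h were fitted (2.81). Nupr1, a small stress-induced chromatin protein, had 3 counts in all at 0 h, all of them in replicate 3, and stood at 0 in 2 of 3 samples of 3 h. Its mean was 54.9 CPM at 12 h and 19.1 CPM at 24 h. Unlike the other regulators, it had its highest mean at 96 h, at 64.0 to 119 CPM. The mean at 96 h was 112 times that of 0 h, and with the counts of each timepoint pooled the ratio was 177, with a 95% counting interval from 60.4 to 859. Nupr1 was called at 6, 12, 18 and 96 h, and all 4 calls were lost without replicate 2 of 0 h, with log2 fold changes of 4.71, 5.17, 4.49 and 5.78. Nupr1, with Asns, Psat1, Mthfd2 and Slc7a5, belongs to the initiatory programme that the study chose in part on these cultures, so that its rise is not independent evidence of that programme.

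Of the 6 enzymes, 2 were called higher at 3 h than at 0 h and 5 at 6 h. All 6 were called at 12 h and 18 h, and 5 of them still at 24 h and 96 h. Each had its highest mean at 12 h, where the median log2 fold change was 7.11, or 6.59 with Phgdh at its lower bound. Mthfd2 (chr6:83305691-83325908), a mitochondrial enzyme of one-carbon metabolism, was at 1.25 and 11.1 CPM at 0 h and at 90.2, 111 and 116 CPM at 3 h. It was at 475, 477 and 484 CPM at 6 h, at 666, 748 and 945 CPM at 12 h and at 73.7, 74.0 and 78.2 CPM at 96 h. Samples of each timepoint in culture lay above those of 0 h, and the 3 samples of 6 h were almost at one level. At 12 h Mthfd2 was up by 7.14 ± 0.64 on the log2 scale (adjusted p = 1.57e-06, edgeR).

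Shmt2 (chr10:127517123-127522444), which passes a carbon unit from serine to folate in mitochondria, was called higher at each timepoint. It was at 17.1 and 21.6 CPM at 0 h, 36.2, 42.7 and 98.8 CPM at 3 h, 130, 183 and 189 CPM at 6 h, and 344, 357 and 367 CPM at 12 h. At 96 h its samples, at 56.2, 66.8 and 77.3 CPM, lay below those of 12 h and above those of 0 h. Against 0 h, Shmt2 showed a log2 fold change of 4.21 ± 0.44 at 12 h (adjusted p = 6.33e-06) and 1.79 ± 0.39 at 96 h (adjusted p = 0.00746, edgeR). The latter call did not hold without replicate 2 of 0 h (1.62), and that at 3 h (1.62 with all samples) was lost without replicate 2 (1.49) and without replicate 3 of 0 h (1.78).

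Psat1 (chr19:15904678-15947337), an aminotransferase of serine synthesis, was at 1.00 and 6.53 CPM at 0 h and at 3.27, 8.39 and 27.9 CPM at 3 h, when the 2 groups overlapped. It was at 171, 183 and 265 CPM at 6 h, at 392, 508 and 544 CPM at 12 h, and still at 170, 170 and 177 CPM at 96 h. At 12 h the log2 fold change was 7.16 ± 0.88 (adjusted p = 3.44e-05) and at 96 h 5.68 ± 0.84 (adjusted p = 0.000273, edgeR). Asns, asparagine synthetase, likewise was at 0 to 9.15 CPM in the samples of 0 h and 3 h and at 222 to 245 CPM at 12 h, a log2 fold change of 7.09 ± 1.26. In replicate 2 of 0 h Asns stood at 0, and the other sample of 0 h had 8 counts. Phgdh, the first enzyme of serine synthesis, stood at 0 in both samples of 0 h and had 1 sample with 3 counts at 3 h. It was at 79.4 to 121 CPM at 12 h, and the mean was at least 68.4-fold higher than at 0 h, set against the floor. Psph, which catalyses the last step of serine synthesis, was called at 12 h and 18 h, with a log2 fold change of 3.78 ± 1.01 at 12 h. It stood at 0 in 1 sample of 0 h, and it shares 452 exonic bases with Cct6a on the opposite strand. Cct6a itself was at 102.0 to 118.5 CPM at 0 h, 288.3 to 377.5 CPM at 12 h and 132.0 to 195.6 CPM at 96 h. Its part in the counts of Psph was not tested.

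**Figure D4:**
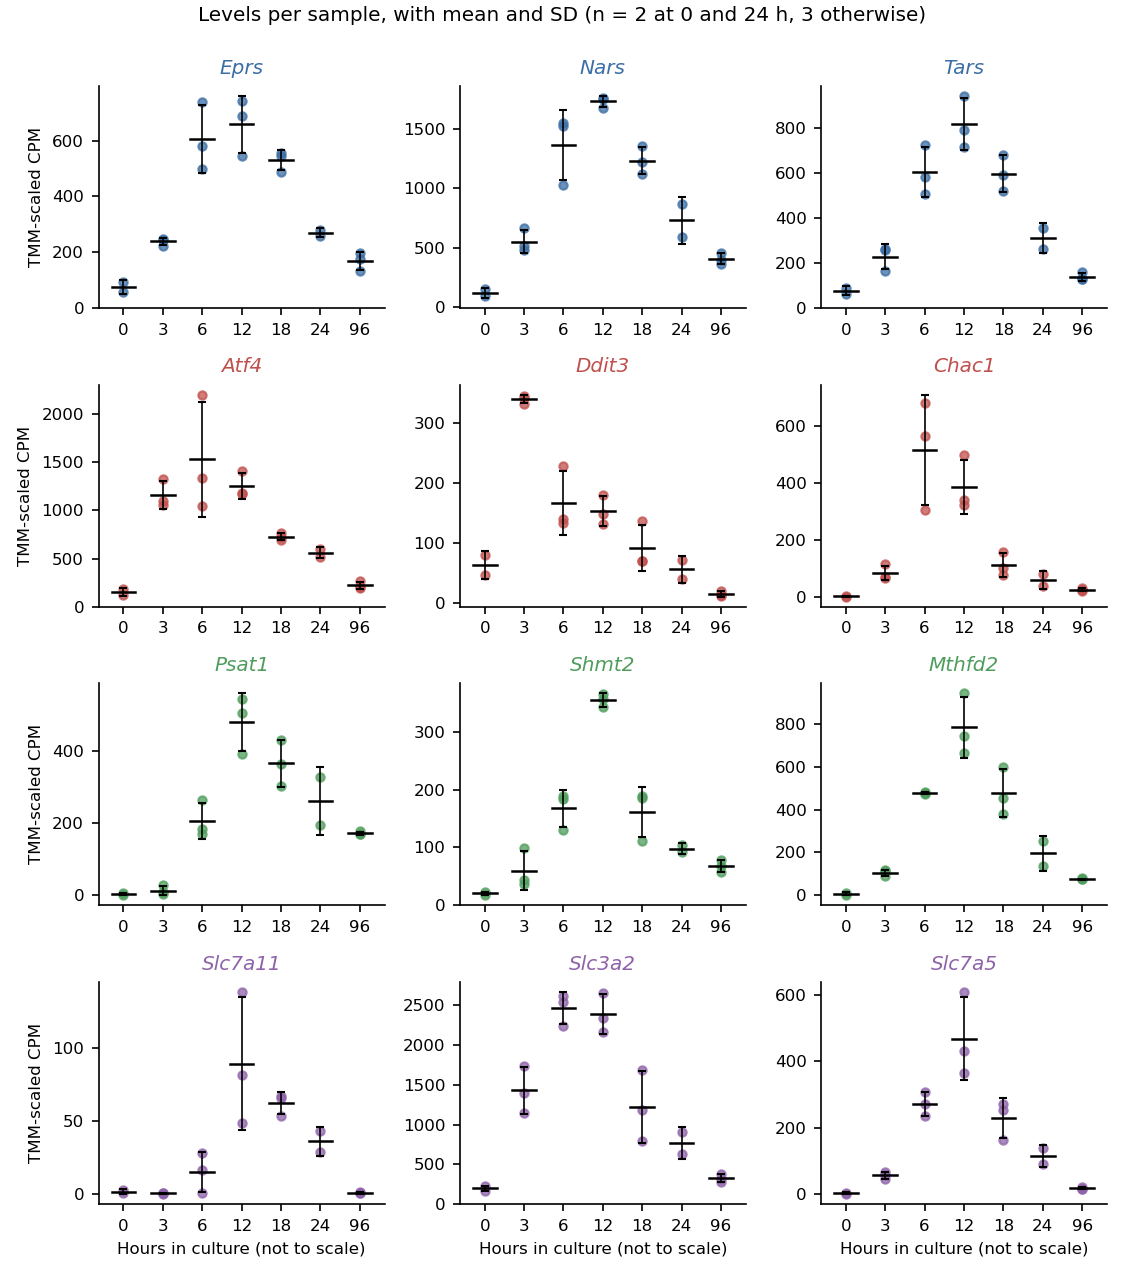
TMM-scaled CPM per sample (points) with the mean (line) and SD (bar) at each culture time, for the 3 genes of each group with the smallest p over all timepoints. Ddit3 stands highest at 3 h, Atf4, Chac1 and Slc3a2 have their highest mean at 6 h, the other 8 at 12 h, and Slc7a11 is near 0 at 0, 3 and 96 h.

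Among the transporters, Slc3a2 (chr19:8706882-8723369) encodes the heavy chain with which the light chains Slc7a5 and Slc7a11 pair. It was at 170 and 222 CPM at 0 h, 1150, 1401 and 1739 CPM at 3 h, 2242, 2541 and 2619 CPM at 6 h and 2160, 2344 and 2657 CPM at 12 h. The samples of 6 h and 12 h overlapped, and by 96 h, at 283, 311 and 379 CPM, the gene was no longer called against 0 h (log2 fold change 0.72 ± 0.27, adjusted p = 0.128, edgeR). Slc7a5 (chr8:121881150-121907694), the light chain that carries large neutral amino acids such as leucine, was at 2.01 and 5.27 CPM at 0 h. It was at 46.8, 59.9 and 67.7 CPM at 3 h, at 236, 272 and 309 CPM at 6 h, at 366, 431 and 609 CPM at 12 h and at 17.5, 17.5 and 23.4 CPM at 96 h. Its samples at every timepoint in culture lay above those of 0 h, and the log2 fold change was 3.91 ± 0.42 at 3 h, 6.92 ± 0.47 at 12 h (adjusted p = 1.4e-07) and 2.33 ± 0.40 at 96 h (adjusted p = 0.000991, edgeR).

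Slc7a11 (chr3:49892526-50443614), the light chain of the cystine-glutamate exchanger, was called higher at 12, 18 and 24 h and at no other timepoint. It was at 0.251 and 2.51 CPM at 0 h, at 0, 0.479 and 0.664 CPM at 3 h, and at 0.593, 16.1 and 27.6 CPM at 6 h. At 12 h it was at 48.2, 81.3 and 138 CPM, at 18 h at 53.3, 65.6 and 67.0 CPM, at 24 h at 28.8 and 42.8 CPM and at 96 h at 0.193, 0.574 and 1.35 CPM. The samples of 12, 18 and 24 h thus stood clear of all others, except that the highest sample of 6 h came close to the lower one of 24 h. The log2 change of Slc7a11 was 6.11 ± 1.51 at 12 h against 0 h (adjusted p = 0.0114) and -6.91 ± 1.29 at 96 h against 12 h (adjusted p = 0.00185, edgeR). Its levels at 0 h and 96 h lay around the floor of 3 counts, so that the sizes of both changes are uncertain. Without replicate 2 of 0 h, the calls of Slc7a11 against 0 h at 12, 18 and 24 h were lost, with log2 fold changes of 5.14, 4.54 and 3.79. At 24 h the call was also lost without either sample of that timepoint. Slc1a5, a glutamine carrier, was at 190 to 215 CPM at 12 h but at 0 and 62.8 CPM in the samples of 0 h, and its log2 fold change of 2.73 ± 1.10 was not called (adjusted p = 0.118, edgeR). Slc1a5 was called without the sample at 0 (replicate 2 of 0 h, log2 fold change 1.70), and also without the other, when the comparison rests on a sample at 0.

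Of the 20 synthetases, 9 were called higher at 3 h than at 0 h, 15 genes at 6 h and 16 both at 12 h and at 18 h. At 24 h 13 were still called and at 96 h 9. The median log2 fold change of the synthetases at 12 h was 3.19, the smallest of the 4 groups, and 11 of them had their highest mean there. Nars, the asparaginyl-tRNA synthetase, was at 90.02 and 151 CPM at 0 h, 481, 511 and 663 CPM at 3 h, 1027, 1526 and 1548 CPM at 6 h and 1678, 1748 and 1763 CPM at 12 h. It was back to 367, 398 and 458 CPM at 96 h, below all its samples from 3 h to 24 h and above both of 0 h. Against 0 h, Nars was up by 3.85 ± 0.28 on the log2 scale at 12 h (adjusted p = 2.81e-07) and by 1.76 ± 0.26 at 96 h (adjusted p = 0.000245, edgeR).

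Tars (chr15:11382301-11399665), the threonyl-tRNA synthetase and a holder of the motif, was at 62.4 and 90.4 CPM at 0 h, 164, 260 and 261 CPM at 3 h and 714, 794 and 944 CPM at 12 h. At 96 h it was at 128, 129 and 160 CPM, above 0 h in each sample but with a fold change below 2 (log2 fold change 0.87 ± 0.26, adjusted p = 0.0453, edgeR). Eprs (chr1:185363044-185428360), which joins glutamyl- and prolyl-tRNA synthetase in one protein, was at 56.4 and 93.4 CPM at 0 h, 224, 245 and 247 CPM at 3 h, 546, 686 and 743 CPM at 12 h and 132, 177 and 197 CPM at 96 h. Its samples at each timepoint in culture lay above those of 0 h. The log2 fold change of Eprs was 3.14 ± 0.27 at 12 h (adjusted p = 9.18e-07) and 1.18 ± 0.24 at 96 h (adjusted p = 0.00475, edgeR), and the latter call was lost without replicate 2 of 0 h (0.85).

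Aars, the alanyl-tRNA synthetase, stood at 0 in both samples of 0 h. It was at 8.29, 15.1 and 35.3 CPM at 3 h, 359, 514 and 642 CPM at 6 h and 731, 763 and 935 CPM at 12 h. Against the floor the mean was at least 13-fold higher at 3 h and at least 538-fold higher at 12 h. At 96 h its samples spread from 14.6 to 378 CPM. Aars shares 1326 exonic bases on the same strand with Exosc6, a subunit of the RNA exosome, which was at 31.1 to 43.9 CPM at 0 h and 2.55 to 51.9 CPM at 12 h, so that the division of reads between the 2 genes is uncertain.

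The other synthetases called at 12 h ranged from a log2 fold change of 2.14 ± 0.29 for Kars, the lysyl-tRNA synthetase, to 3.96 ± 0.98 for Rars, the arginyl-tRNA synthetase. Cars, the cysteinyl-tRNA synthetase, had its highest mean at 3 h, at 181 to 296 CPM against 18.1 and 19.1 CPM at 0 h (log2 fold change 3.69 ± 0.36, adjusted p = 1.18e-05, edgeR). Wars, the tryptophanyl-tRNA synthetase, was at 23.3 to 26.5 CPM at 3 h, 58.7 to 67.1 CPM at 6 h and 111 to 228 CPM at 12 h. Qars, the glutaminyl-tRNA synthetase, was at 8.54 and 48.1 CPM at 0 h and 9.21 to 38.9 CPM at 12 h, a log2 fold change of 0.02 ± 0.65, and had its highest mean at 96 h, at 74.6 to 77.4 CPM. Dars, for aspartate, was at 32.7 to 60.2 CPM at 12 h against 23.1 and 35.2 CPM (0.76 ± 0.75). Vars, for valine, stood at 0 in 5 of the 19 samples, each time beside a sample of the same timepoint with 50 counts or more, and Farsb, a subunit of the phenylalanine enzyme, in 1 sample of 3 h. Mars1, for methionine, was called at 12 h but lost its call without replicate 3 of 0 h (log2 fold change 2.27), replicate 2 of 12 h (3.15) or replicate 3 of 12 h (3.07).

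The synthetases fall into 2 structural classes, and some are held in a multisynthetase complex. At 12 h, 8 of the 10 genes listed as class I were called (median log2 fold change 3.16), as were 8 of the 10 listed as class II (3.32). Eprs, which joins glutamyl- and prolyl-tRNA synthetase, was counted in class I only, and the subunit genes Farsa and Farsb were counted singly in class II. Of the 8 enzymes in the complex (Dars, Eprs, Iars, Kars, Lars, Mars1, Qars and Rars), 1 was called at 3 h and 6 were at 12 h (2.63). These differences were not tested.

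**Figure D5:**
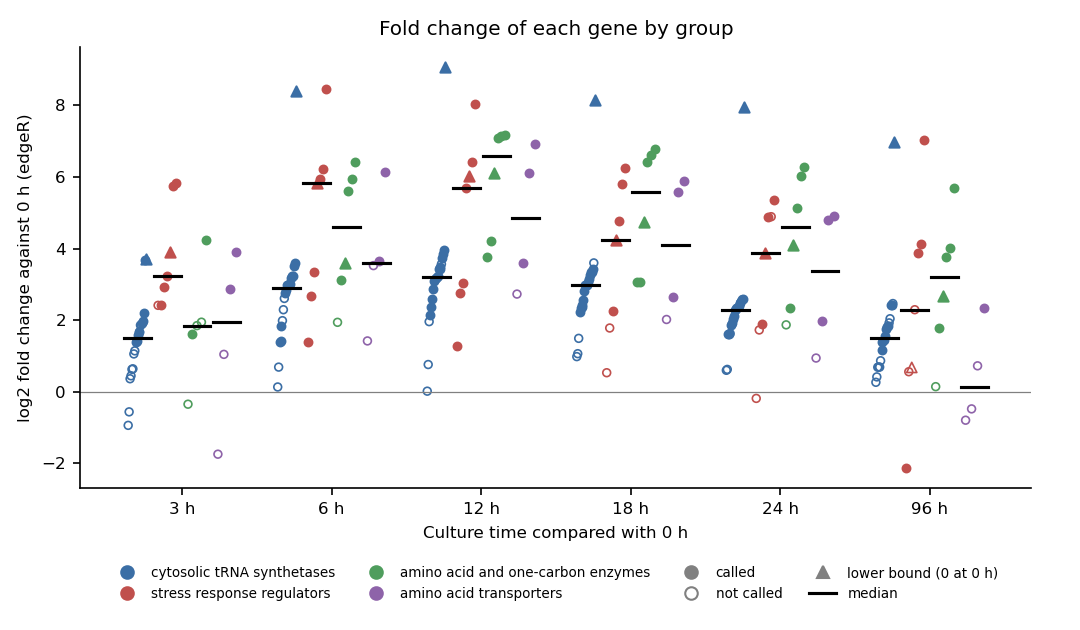
Log2 fold change against 0 h (edgeR) of each gene at each culture time by group, with called genes filled, the median of each group as a line and genes at 0 in both samples of 0 h (Aars, Trib3, Phgdh) as triangles at their lower bound. Phgdh is left out at 3 h, where it was under the floor, and at 96 h Ddit3 lies at -2.12.

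Timepoints in culture were compared in the same fit. From 3 h to 6 h, 17 of the 37 genes rose (all genes 2.5%) and none fell (1.99%), with 1 gene lower at an unadjusted p below 0.05 and by DESeq2. The 17 comprised 9 synthetases, 5 of the 6 enzymes, 2 transporters and 1 regulator, Chac1. The other 6 regulators were not called: Atf4, for instance, had a log2 fold change of 0.40 ± 0.23 and Ddit3 of -1.03 ± 0.34 (adjusted p = 0.125, edgeR), although all 3 samples of Ddit3 lay lower at 6 h. From 6 h to 12 h only Wars was called (1.34 ± 0.30, adjusted p = 0.0392, edgeR), where 0.416% of all genes were higher and 1.42% lower. Of the 37 genes, 9 were higher at an unadjusted p below 0.05 and 3 by DESeq2. With the replicate number as a block the count was 2. Without replicate 1 of 6 h or replicate 2 of 12 h it was 0, without either of the samples of 0 h it was 3, and without replicate 2 of 3 h, replicate 2 or 3 of 6 h or replicate 1 of 12 h it was 2. For 17 of the 37 genes all samples of 12 h lay above those of 6 h, and these included all 6 enzymes, while the share over all genes tested was 8.4%.

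From 12 h to 96 h, 25 of the 37 genes fell (all genes 6.57%) and none rose (6.96%), with 1 gene higher at an unadjusted p below 0.05 and by DESeq2, Qars. All 6 enzymes and all 4 transporters fell, with 5 of 7 regulators and 10 of 20 synthetases. Across the 25 other settings at the same thresholds, the call was lost in 18 for Psat1 and in 11 for Sars. It was lost in 9 for Phgdh, in 3 for Sesn2 and in 2 for Slc1a5. The median log2 fold change was -3.90 for transporters, -3.23 for enzymes, -2.49 for regulators and -1.83 for synthetases, against 0.09 over all genes tested. The falls ranged from 1.04 ± 0.36 for Sars, the seryl-tRNA synthetase, to 6.91 for Slc7a11 on the log2 scale. Slc7a11 was at 0.193 to 1.35 CPM at 96 h, around the floor of 3 counts (0.505 to 0.860 CPM in those samples), so that the size of its fall is uncertain. Calls of Psat1 (adjusted p = 0.0987), Phgdh (0.0795) and Sars (0.0804, edgeR) lay near the threshold, and with the replicate number as a block those of Psat1 (0.136) and Phgdh (0.109) were lost and Aars was called (0.0281). Nupr1 had a log2 fold change of 0.62 ± 1.16 and was not called. At 96 h, 18 genes still stood higher than at 0 h: 9 synthetases, Chac1, Sesn2, Nupr1, 5 enzymes and Slc7a5.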

How the data were processed

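The authors deposited a table of raw read counts, not normalized, from QuantSeq 3′ libraries of 19 samples. Per the labels and the study's methods, trimmed single-end reads were aligned by STAR to the mouse genome GRCm38.p6 and passed to StringTie. Versions, counting tool, strand setting and annotation release are not given in the sources used here. Reads come from transcript 3′ ends, so that overlapping genes can share them.

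Identifiers were matched to symbols through GENCODE M21 (55141 of 55487), with Mars1 listed there as Mars. A second identifier of Ddit3 with 99 counts was not used. Low counts were removed by filterByExpr, TMM gave the scaling, and edgeR 4.0.16 (R 4.3.3) tested all samples in one quasi-likelihood fit with timepoint as the only factor. The p-values measure the spread between these samples. A call required an adjusted p under 0.1 together with a fold over 2. SE is the log2 fold change divided by the square root of F. Folds against 0 h groups at 0 are bounds against 3 counts in the shallower sample.

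All 37 genes are named. Values per sample are given for the 3 of each group with the smallest F test p, and other genes by the same rule per list. Members and lists were chosen with earlier results of these data known. Alternatives were DESeq2 1.42.0, library size scaling, no filter, a replicate block, the isolation label, only the timepoints compared, other thresholds and leaving out each sample. Steps were tested on simulated data. The block is the replicate number of the labels, and samples of one number carry one isolation label. The mean correlation of residuals was 0.014 for 51 pairs that share a number (at most 0.082) and -0.007 for 103 pairs that do not. Replicates 1 and 3 share an isolation label. Replicate 2 alone carries the other, with 1 sample per timepoint, so that no value within that isolation was possible.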

Additional observations from a re-analysis of the deposited data

How the results depend on the processing

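The numbers of genes called against 0 h, at 6 h against 3 h, at 96 h against 12 h and across all timepoints stayed within 1.5 times the reported ones under every alternative. At 12 h against 6 h the count of 1 became 3 with DESeq2, 2 with the replicate block, 6 when only these timepoints were fitted, 2 without a limit on the fold change and 0 to 3 when single samples were left out. With the replicate block the counts against 0 h were 19, 29, 32, 30, 26 and 20 from 3 h to 96 h, and beside the calls named in the report the pairing lost or added no call at 12 h against 0 h. Of the genes called, 24 of 32 at 12 h and 20 of 25 at 96 h against 12 h remained called under every alternative that kept the thresholds, against 11 of 19 at 3 h and at 96 h. Those lost under any alternative at 12 h were Ddit3, Ddit4, Hars, Mars1, Nupr1, Psph, Rars and Slc7a11, and Ddit4, Hars, Mars1, Psph and Rars were lost at 12 h when only 0 h and 12 h were fitted. At 3 h they were Aars, Ddit4, Farsa, Gars, Sars, Shmt2, Trib3 and Yars, at 6 h Ddit3, Ddit4, Hars, Nupr1, Phgdh, Rars and Trib3, at 18 h Hars, Mars1, Nupr1, Psph, Rars, Sesn2, Slc7a11 and Trib3, at 24 h Farsa, Iars, Phgdh, Sesn2, Slc7a11, Trib3 and Yars, at 96 h Asns, Eprs, Nupr1, Phgdh, Sesn2, Shmt2, Slc7a5 and Wars, and at 96 h against 12 h Phgdh, Psat1, Sars, Sesn2 and Slc1a5. The direction of Qars at 12 h against 0 h reversed with DESeq2 (log2 fold change -0.215) and without the filter (-0.055), and it lay between -0.759 and 1.752 on leaving out single samples, and that of Farsa at 96 h against 12 h on leaving out replicate 1 of 12 h or replicate 2 of 96 h (-0.314 to 0.028 over all samples left out), none of them called. The cause was not tested. Other scalings shifted all genes by a median of -0.24 to 0.27 (log2) in the comparisons against 0 h, while the median of the 37 genes at 12 h was 3.25 with DESeq2 and 3.55 with library size scaling. The 2 samples of 0 h limit each comparison against that timepoint.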

Other observations

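Listed here beside the cytosolic enzymes are those mitochondrial aminoacyl-tRNA synthetases that have a nuclear gene of their own. They charge tRNAs inside the organelle, and the list holds none for glycine or lysine. Of 17, 15 could be tested, and at 12 h none was called higher than at 0 h by edgeR, with 0 at an unadjusted p below 0.05 and 1 by DESeq2, and 1 was called lower. Over all genes tested, 8.6% were called higher and 9.1% lower. The median log2 fold change of the mitochondrial enzymes was 0.37, against 3.19 for the cytosolic ones. Across all timepoints none of the mitochondrial enzymes changed by the F test at the adjusted threshold (2 at an unadjusted p below 0.05, 4 by DESeq2). Iars2, the mitochondrial isoleucine enzyme, was at 51.2 and 111 CPM at 0 h and 24.3 to 57.4 CPM at 12 h. The one called lower was Cars2, at 10.0 and 16.3 CPM at 0 h and at 0 in all 3 samples of 12 h. Sars2 stood at 0 in 14 of the 19 samples. Of the scaffold proteins of the multisynthetase complex, Eef1e1 stood at 0 in both samples of 0 h and at 28.95 to 80.1 CPM at 12 h, where the mean was at least 36.4-fold higher than at 0 h, set against the floor of 3 counts. Aimp1 was at 109 and 144 CPM at 0 h, 35.2 to 92.8 CPM at 3 h and 131 to 203 CPM at 12 h, and Aimp2 stood at 0 in all but 2 samples.

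Upstream of ATF4, 4 of 8 genes for subunits of eIF2 and its exchange factor eIF2B were called higher at 12 h and none lower (0 at an unadjusted p below 0.05, 0 by DESeq2), with a median log2 fold change of 1.74. Over all genes tested, 8.6% were called higher at 12 h and 9.1% lower. Eif2s2, the beta subunit, was at 626 and 659 CPM at 0 h and already at 2674 to 4053 CPM at 3 h (log2 fold change 2.45 ± 0.22), and it was at 4257 to 4582 CPM at 12 h (2.78 ± 0.22). Eif2b3 and Eif2s1 rose by 2.81 ± 0.48 and 2.15 ± 0.35 at 12 h. Of 6 genes for the eIF2 alpha kinases and the phosphatase subunits that reverse them, 2 were called higher at 12 h, Eif2ak1 (2.03 ± 0.41) and Ppp1r15b (1.505 ± 0.28). Ppp1r15a, the stress-induced subunit, was at 564 and 785 CPM at 0 h, at 1898 to 2078 CPM at 3 h and at 136 to 202 CPM at 96 h.

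Of 23 further genes linked to ATF4 that could be tested, 14 were called higher at 12 h and none lower (1 at an unadjusted p below 0.05, 0 by DESeq2), with a median of 3.97. The shares over all genes tested were 8.6% higher and 9.1% lower. The cationic amino acid transporter Slc7a1 was at 41.7 and 48.9 CPM at 0 h and 580 to 822 CPM at 12 h. Jdp2, a repressor of the AP-1 family, stood at 0 in both samples of 0 h and at 61.1 to 81.0 CPM at 3 h. Atf3, a stress-induced transcription factor, went another way, at 247 and 456 CPM at 0 h, 629 to 1020 CPM at 3 h, 185 to 352 CPM at 12 h and at most 1.18 CPM at 96 h.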
